A study of Mus musculus with 6 samples.

Results

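The heat shock proteins and chaperonins of the mouse hippocampus were followed on 101 probe sets of 43 genes. They are the probe sets with a single gene symbol that starts with Hspa, Hspb, Hspd, Hspe, Hsph, Hsp90a, Hsp90b, Dnaja, Dnajb or Cct and a mean signal of 100 or more in at least 1 group. Of 127 probe sets (52 genes) with such a symbol, 26 were below that signal in every group, and the 101 stand among 23262 probe sets tested. Hippocampi came from male mice of the Tg2576 line on a C57BL/6 background, a model of Alzheimer's disease in which the prion protein promoter drives human amyloid precursor protein APP695 with the Swedish double mutation (APPSwe). The group Tg-18mo-ACEI received captopril, a brain-penetrating drug that blocks angiotensin-converting enzyme (ACE), at 20 mg per kg per day in drinking water for 6 months up to an age of 18 months. The group Tg-18mo was untreated and 18 months old, with a high amyloid-beta plaque load, and the group Tg-12mo was untreated and 12 months old, the age at which captopril was started, with a low plaque load. All groups carry the transgene, so no comparison here is with non-transgenic mice. Each group has 2 chips, each with RNA pooled from 4 mice, and the p-values below measure the spread between chips of pooled RNA, not between mice.

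Heat shock proteins and chaperonins are helpers of protein folding. Hsp70 proteins bind unfolded stretches of other proteins in cycles of ATP hydrolysis, J proteins (the Dnaj genes) deliver substrates and trigger that hydrolysis, and Hsp110 proteins exchange the bound nucleotide. Hsp90 finishes the folding of kinases and receptors, small heat shock proteins hold unfolded proteins without ATP, and the ring-shaped chaperonin TRiC encloses actin and tubulin while they fold. Sister proteins serve the endoplasmic reticulum and the mitochondria. The stress-inducible genes are switched on by heat shock factor, which binds inverted repeats of GAA, and those of the endoplasmic reticulum by the unfolded protein response. Chaperones have long been studied in Alzheimer's disease because they bind amyloid-beta and tau. The questions here are how their transcripts differ with captopril at the same age, and how 18 month-old mice differ from 12 month-old mice.

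The promoter sequences of the genes on which the results turn are shown with the elements that were searched for. RefSeq windows on GRCm38.p6, from 250 bases before to 50 bases after the gene start, were matched for 37 of the 43 genes. A heat shock element of 3 repeats (GAA, TTC and GAA, or TTC, GAA and TTC, with any 2 bases between repeats, on either strand) was present in 4 of these 37 genes (10.8%), namely Dnajb6, Hspd1, Hspe1 and Hsph1, against 0.662% of the 27025 genes with a window. The shorter element of 2 repeats (GAANNTTC or TTCNNGAA, each its own reverse complement, and part of every 3-repeat match) was present in 16 of 37 (43.2%), against 17.0% of all genes. The endoplasmic reticulum stress element (CCAAT and CCACG with 9 bases between them, either strand) was found in Hspa5 and Hsp90b1 (5.41%), against 0.137% of all genes. Capitals mark the endoplasmic reticulum stress element in Hspa5 and the heat shock elements in the other 5 windows, each written 5′ to 3′ in the direction of transcription. Hspa1a and Hspa1b are shown for the stress-inducible Hsp70 (chr17:34972107-34972406, minus strand, and chr17:34959189-34959488, minus strand), Hspa5 for the endoplasmic reticulum (chr2:34771840-34772139, plus strand), Hspb1 for the small heat shock proteins (chr5:135887669-135887968, plus strand), Hsph1 for the Hsp110 family (chr5:149636287-149636586, minus strand) and Hspe1 for the mitochondrial chaperonin (chr1:55087898-55088197, plus strand).
Hspa1a: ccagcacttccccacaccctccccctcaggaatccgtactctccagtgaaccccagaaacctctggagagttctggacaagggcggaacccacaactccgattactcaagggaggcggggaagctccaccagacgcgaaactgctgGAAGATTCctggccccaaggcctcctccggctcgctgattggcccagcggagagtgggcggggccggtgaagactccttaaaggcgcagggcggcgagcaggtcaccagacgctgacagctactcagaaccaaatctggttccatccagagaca
Hspa1b: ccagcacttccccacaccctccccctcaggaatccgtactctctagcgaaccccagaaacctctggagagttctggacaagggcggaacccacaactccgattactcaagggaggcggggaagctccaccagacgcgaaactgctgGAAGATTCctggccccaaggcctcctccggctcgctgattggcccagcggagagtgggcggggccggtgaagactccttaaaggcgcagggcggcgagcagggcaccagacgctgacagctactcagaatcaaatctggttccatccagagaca
Hspa5: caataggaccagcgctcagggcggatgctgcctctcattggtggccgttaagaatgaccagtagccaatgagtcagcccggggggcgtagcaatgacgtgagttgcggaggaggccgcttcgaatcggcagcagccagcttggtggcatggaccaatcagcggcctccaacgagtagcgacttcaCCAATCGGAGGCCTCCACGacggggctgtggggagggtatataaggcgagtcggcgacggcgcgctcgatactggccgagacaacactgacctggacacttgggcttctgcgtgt
Hspb1: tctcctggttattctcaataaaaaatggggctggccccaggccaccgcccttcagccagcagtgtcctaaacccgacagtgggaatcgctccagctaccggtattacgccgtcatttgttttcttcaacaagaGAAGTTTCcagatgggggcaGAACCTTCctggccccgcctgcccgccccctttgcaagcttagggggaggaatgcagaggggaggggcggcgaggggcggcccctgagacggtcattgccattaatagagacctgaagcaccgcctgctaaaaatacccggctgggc
Hsph1: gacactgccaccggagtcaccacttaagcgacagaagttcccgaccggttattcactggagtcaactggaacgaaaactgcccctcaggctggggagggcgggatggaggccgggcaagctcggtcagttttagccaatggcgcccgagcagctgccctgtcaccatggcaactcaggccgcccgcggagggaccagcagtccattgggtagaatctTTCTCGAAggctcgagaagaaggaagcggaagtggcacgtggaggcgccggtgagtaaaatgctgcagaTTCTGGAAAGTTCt
Hspe1: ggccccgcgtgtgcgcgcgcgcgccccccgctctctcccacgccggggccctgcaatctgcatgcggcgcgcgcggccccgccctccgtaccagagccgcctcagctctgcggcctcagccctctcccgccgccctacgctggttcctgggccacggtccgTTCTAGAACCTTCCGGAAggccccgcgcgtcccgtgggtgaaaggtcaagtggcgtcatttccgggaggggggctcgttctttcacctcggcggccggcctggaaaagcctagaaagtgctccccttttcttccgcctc
The windows of Hspa1a and Hspa1b, neighbouring copies of the same gene, differed at 4 of 300 bases, and both hold a 2-repeat element from base -104 to -97 relative to the first base of the gene, which is counted as 0. The Hspb1 window holds 2-repeat elements at -117 and -97. The window of Hspe1 shares 285 bases with that of Hspd1 on the opposite strand, so both genes are read outward from the same elements. The letters describe these windows and do not show that a factor was bound in these hippocampi.

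The 6 chips were close to one another. Log2 signals of chips of one group correlated at 0.987 to 0.992 over the probe sets, and those of different groups at 0.958 to 0.965. The probe sets in these correlations are not independent replicates. The 3′ control probe set for 18S ribosomal RNA stood apart on the untreated 18 month chips, at 2214 and 1999.95 in Tg-18mo-ACEI, 10219 and 11144 in Tg-18mo, and 2125 and 2121 in Tg-12mo. The ratio of 3′ to 5′ signal of β-actin was 1.45 and 1.39 in Tg-18mo-ACEI, 1.98 and 1.88 in Tg-18mo, and 1.83 and 1.77 in Tg-12mo. All 10 markers of hippocampal principal neurons passed the signal minimum. Markers of the tissue around the hippocampus, and of smooth muscle and pericytes, differed with treatment: with captopril, 10 of 11 choroid plexus genes, 9 of 11 meningeal genes, 8 of 8 ependymal genes and 4 of 8 smooth muscle and pericyte genes were lower than in Tg-18mo. Their part in the results, and that of the 18S and β-actin values, was not tested. In whole tissue, fewer cells of a type and less RNA per cell cannot be told apart.

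With captopril, each called probe set of the cytosolic Hsp70 and endoplasmic reticulum chaperones was higher than in untreated 18 month-old mice, while each called probe set of the small heat shock proteins was lower. The captopril comparison had 27 probe sets of these genes higher and 11 lower in Tg-18mo-ACEI than in Tg-18mo (adjusted p under 0.05 in limma), or 37.62% of 101, against 33.6% of all probe sets tested. These calls made 18 genes higher, 8 lower and 1 (Dnajb6) both, and on the brightest probe set of each gene 12 were higher and 7 lower. The median log2 difference of the 101 was 0.08, against -0.04 over all probe sets. Of the 27 and 11, all kept their call under quantile normalization. The count of 11 lower became 3 when replicate 1 of Tg-18mo-ACEI was left out, and 5 when its replicate 2, or either Tg-18mo chip, was left out. For age, 25 were higher and 28 lower in Tg-18mo than in Tg-12mo, 52.48% of 101 against 47.3% of all, with a median of -0.03 against 0.05. Between Tg-18mo-ACEI and Tg-12mo, 33 were higher and 23 lower, 55.45% against 40.1% of all (22.3% higher and 17.7% lower), with a median of 0.08 against 0.05. The chips of the 2 groups did not overlap on 76 of the 101 probe sets with captopril against Tg-18mo, on 74 for Tg-18mo against Tg-12mo and on 78 for Tg-18mo-ACEI against Tg-12mo, which compares with 71.4%, 74.5% and 71% of all probe sets. A limma p of 0.01 or less with a 2-fold difference was met by 4, 3 and 3 of the 101 in the same order, against 4.1%, 4.35% and 3.29% of all. The share called in the captopril comparison and in the age comparison was near that of all probe sets.

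By family, the calls ran in different directions. In the captopril comparison, 6 of 12 cytosolic Hsp70 probe sets and 8 of 15 endoplasmic reticulum probe sets were higher and none of either was lower, against 15.9% of all probe sets higher and 17.7% lower. The Hsp70 calls fell on 4 of 6 genes, with 3 calls on Hspa1b and 1 on Hspa1a, its near-identical copy. Those of the endoplasmic reticulum fell on 5 of 7 genes, with 3 on Hspa13. Probe sets of 1 gene are not independent measurements. The 8 endoplasmic reticulum calls include a dim Hspa13 probe set that passed the signal minimum only through Tg-18mo-ACEI. The filter favours such a rise, so that call adds no evidence to the count. Of 9 small heat shock protein probe sets, 4 were lower and none was higher, with a median log2 difference of -0.50. That median includes Hspb2 (-0.54) and Hspb3 (-0.74), neither of them called. Both passed the signal minimum only through Tg-18mo, so the filter favours such falls. The Hsp110 family had 3 of 10 higher, TRiC 5 higher and 2 lower of 20, the J proteins outside these compartments 4 higher and 4 lower of 23, and the mitochondrial chaperones 0 higher and 1 lower of 9. For age, all 3 cytosolic Hsp90 probe sets and 8 of 20 of TRiC were lower in Tg-18mo than in Tg-12mo, against 21.5% of all probe sets lower, while 5 of 10 of the Hsp110 family were higher, against 25.9%, and 2 lower. The 3 cytosolic Hsp90 probe sets all belong to 1 gene, Hsp90aa1. The TRiC probe sets also held 2 that were higher. The medians of cytosolic Hsp90 (-0.37) and TRiC (-0.08) turned to 0.05 and 0.04 under quantile normalization. The comparisons share the chips of Tg-18mo or of Tg-12mo, so a probe set that is low or high on one pair of chips enters both. With that in view, 13 probe sets were higher and 6 lower in Tg-18mo-ACEI than in both other groups, against 7.23% and 5.89% of all probe sets. In Tg-18mo 5 were higher and 14 lower than in both others, against 10.2% and 9.19% of all. In Tg-12mo 14 were higher and 17 lower than in both 18 month groups, against 10.9% and 13.6% of all. No comparison called 23 of the 101, against 36.1% of all.

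**Figure D1:**
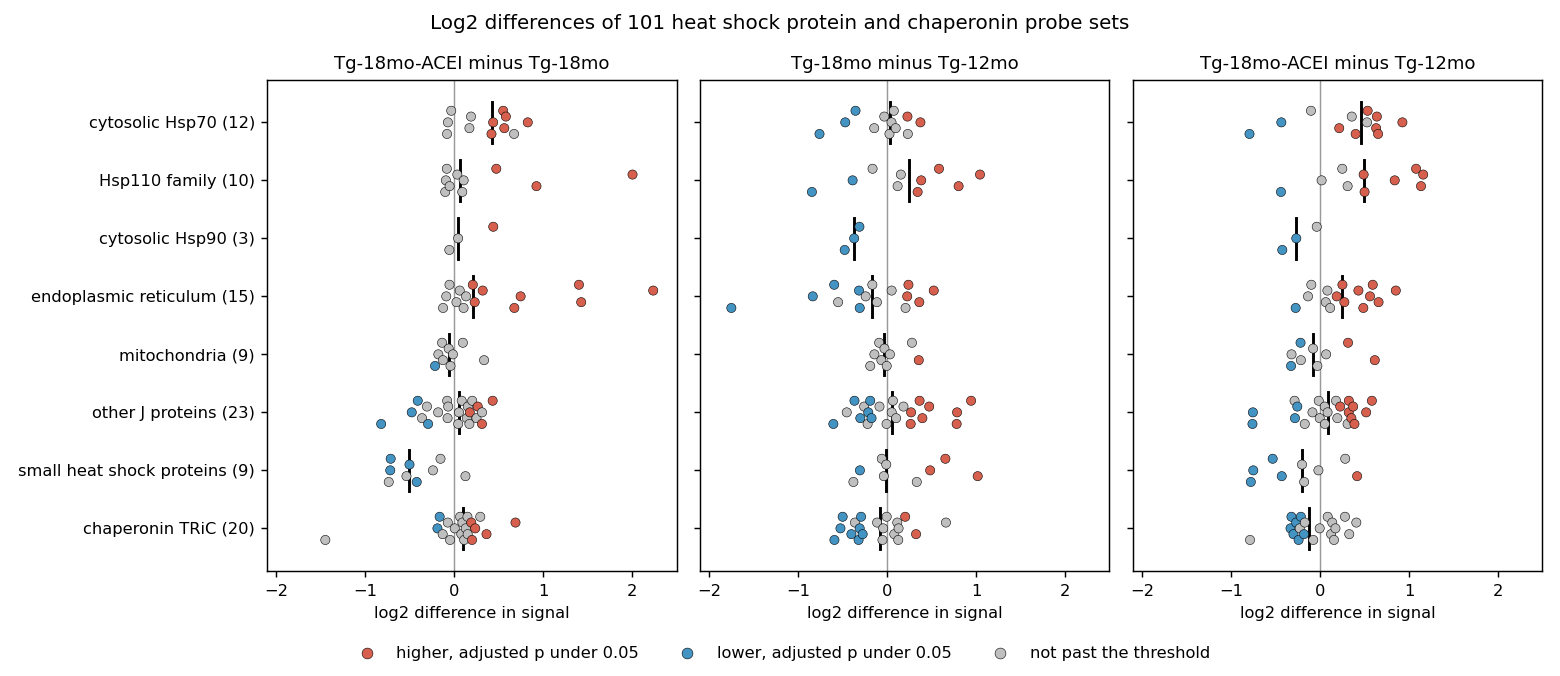
Log2 differences in signal of the 101 probe sets (x axis) by family (rows, number of probe sets in parentheses) in the 3 comparisons. Each point is a probe set, coloured where its adjusted p was under 0.05, and the black tick is the family median, which in the left panel was 0.43 for cytosolic Hsp70 and -0.50 for small heat shock proteins. Hspb2 and Hspb3, in the latter family, reached the signal minimum only through Tg-18mo.

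The stress-inducible Hsp70 genes Hspa1a and Hspa1b were higher with captopril on all 4 of their probe sets. Probe set 1427126_at of Hspa1b read 971 and 948 in Tg-18mo-ACEI, 652 and 658 in Tg-18mo and 540.0 and 473 in Tg-12mo. Both captopril chips lay above both Tg-18mo chips, which lay above both Tg-12mo chips (log2 difference 0.55 ± 0.09, adjusted p = 0.0018 with captopril, and log2 difference 0.37, adjusted p = 0.0071 for Tg-18mo over Tg-12mo). Here and below, ± is the standard error of the limma fit. Probe set 1427127_x_at of the same gene had signals of 1370.0 and 1402 in Tg-18mo-ACEI, 1005 and 876 in Tg-18mo and 888 and 893 in Tg-12mo. Its captopril chips again stood above the rest (log2 difference 0.56 ± 0.08, adjusted p = 0.00096), while the untreated groups overlapped. On probe set 1452318_a_at the order of the untreated groups was the other way round, with 1829 and 2289.8 in Tg-18mo-ACEI, 1339 and 993 in Tg-18mo and 1719 and 1487 in Tg-12mo (log2 difference 0.83 ± 0.15, adjusted p = 0.004 with captopril, and log2 difference -0.47, adjusted p = 0.031 for Tg-18mo over Tg-12mo). That age call was lost with Tg-18mo replicate 2 (adjusted p = 0.19) or Tg-12mo replicate 1 (adjusted p = 0.15) left out. Hspa1a, on probe set 1452388_at, gave 1346 and 1718 in Tg-18mo-ACEI, 1176 and 1099 in Tg-18mo and 1042 and 899 in Tg-12mo (log2 difference 0.42 ± 0.12, adjusted p = 0.026 over Tg-18mo, and log2 difference 0.65, adjusted p = 0.0028 over Tg-12mo). The call for Hspa1a over Tg-18mo was lost with Tg-18mo-ACEI replicate 2 (adjusted p = 0.16), Tg-18mo replicate 1 (adjusted p = 0.062) or Tg-18mo replicate 2 (adjusted p = 0.13) left out. Because the 2 genes are near-identical copies, which of them a probe set reads is uncertain, and the 4 probe sets are not 4 independent measurements. Hspa1l, the testis form of the same cluster, was below the signal minimum in every group.

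Hspa8 encodes the constitutive Hsc70, which also uncoats clathrin vesicles. Its brightest probe set, 1455789_x_at, had signals of 18894 and 17805 in Tg-18mo-ACEI, 18348 and 19204 in Tg-18mo and 30855 and 32780.3 in Tg-12mo. The captopril and untreated 18 month chips overlapped (log2 difference -0.03 ± 0.05, adjusted p = 0.66), and both groups were far below the 12 month chips on this scale (log2 difference -0.76, adjusted p = 2.3e-05 for Tg-18mo over Tg-12mo). Probe set 1420623_x_at, with 14656 and 13243 in Tg-18mo-ACEI, 14297 and 15175 in Tg-18mo and 18824 and 18875 in Tg-12mo, was likewise highest in Tg-12mo. The third, 1420622_a_at, read 7783 and 8515 in Tg-18mo-ACEI, 7218 and 7065 in Tg-18mo and 7511 and 6549.8 in Tg-12mo and was higher with captopril than in Tg-12mo (log2 difference 0.21, adjusted p = 0.042), a call lost with Tg-18mo-ACEI replicate 2 (adjusted p = 0.22), Tg-18mo replicate 1 (adjusted p = 0.059), Tg-18mo replicate 2 (adjusted p = 0.059) or Tg-12mo replicate 2 (adjusted p = 0.24) left out. The difference from the 12 month chips depended on scaling. After quantile normalization the log2 difference of 1455789_x_at between Tg-18mo and Tg-12mo was -0.06, and that of 1420623_x_at turned to 0.18. Hspa2, a Hsp70 best known from spermatogenesis, read 1683 and 1634 in Tg-18mo-ACEI, 1286 and 1166 in Tg-18mo and 1188 and 1104 in Tg-12mo. Both captopril chips were above the other 4 (log2 difference 0.44 ± 0.07, adjusted p = 0.0022). Hspa12a, a distant relative of Hsp70, read 1728 and 1661 in Tg-18mo-ACEI, 1139 and 1126 in Tg-18mo and 1091 and 1098 in Tg-12mo on probe set 1436961_at (log2 difference 0.58 ± 0.06, adjusted p = 0.00017). Its brighter probe set 1434051_s_at read 2322 and 2329.9 in Tg-18mo-ACEI, 2140.4 and 1993 in Tg-18mo and 1847 and 1683 in Tg-12mo, with a smaller captopril difference that was not called (log2 difference 0.17, adjusted p = 0.069). Hspa14, a Hsp70-like protein at the ribosome, had 1147 and 1156 in Tg-18mo-ACEI, 1184 and 1235 in Tg-18mo and 1174 and 1303 in Tg-12mo on its brighter probe set 1448586_at and was called in no comparison.

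**Figure D2:**
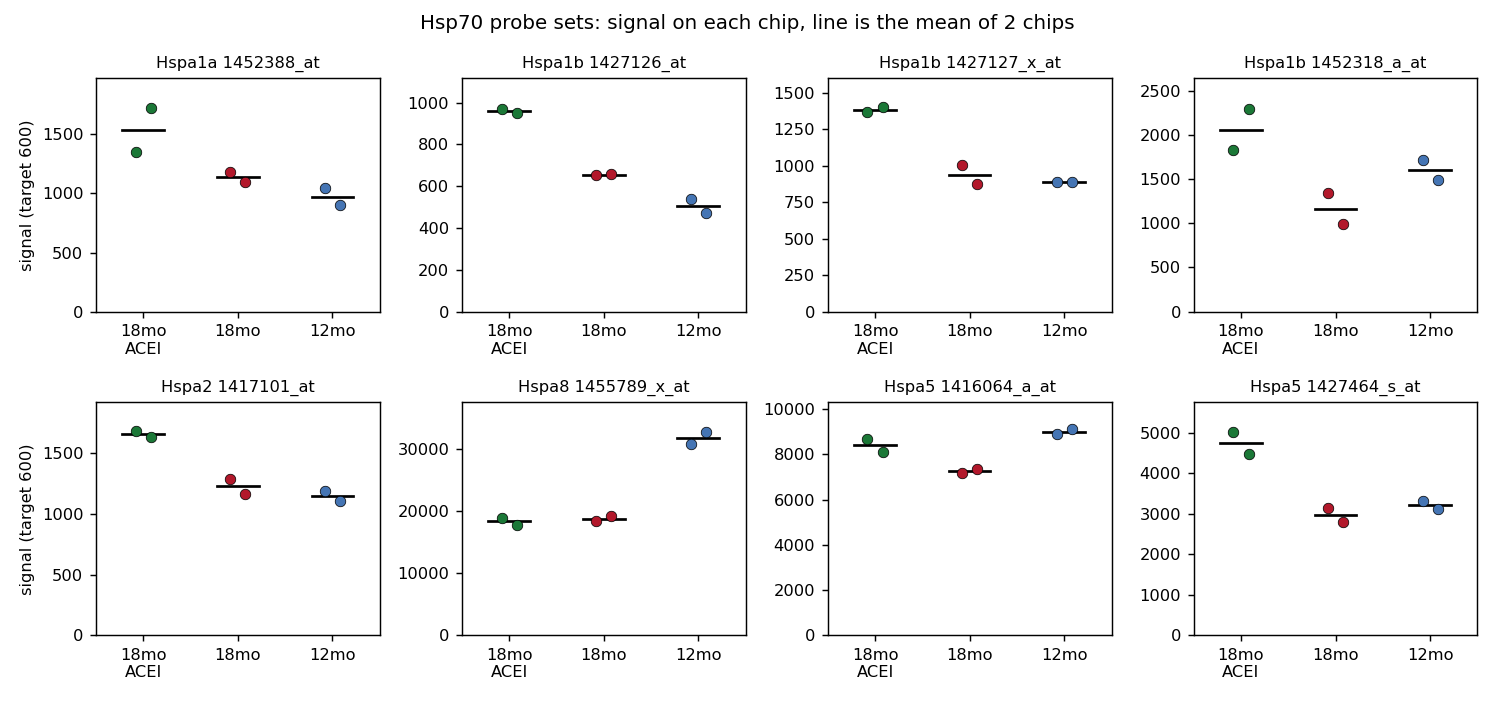
Signal of 8 Hsp70 probe sets (y axis, target value 600, from 0) on each chip, with a line at the mean of the 2 chips of Tg-18mo-ACEI, Tg-18mo and Tg-12mo. The captopril chips stood above both Tg-18mo chips in every panel except that of Hspa8, where 18894 and 17805 in Tg-18mo-ACEI overlapped 18348 and 19204 in Tg-18mo.

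Among the endoplasmic reticulum chaperones, 5 of 7 genes had at least 1 probe set higher with captopril and none had 1 lower. Hspa5, the Hsp70 of the endoplasmic reticulum which also holds the sensors of unfolded proteins in check, read 5031 and 4477 in Tg-18mo-ACEI, 3143 and 2807 in Tg-18mo and 3327 and 3111 in Tg-12mo on probe set 1427464_s_at (log2 difference 0.68 ± 0.08, adjusted p = 0.00036). On its brightest probe set, 1416064_a_at, the signals were 8696 and 8103 in Tg-18mo-ACEI, 7153 and 7369 in Tg-18mo and 8881 and 9101 in Tg-12mo. There the Tg-18mo chips were the low pair (log2 difference 0.21 ± 0.05, adjusted p = 0.013 with captopril, and log2 difference -0.31, adjusted p = 0.0013 for Tg-18mo over Tg-12mo), with an adjusted p of 0.15 for Tg-18mo-ACEI over Tg-12mo. The values against Tg-12mo moved with scaling: after quantile normalization the log2 difference was -0.10 for Tg-18mo (adjusted p = 0.057) and 0.17 for Tg-18mo-ACEI (adjusted p = 0.0084). The dimmest Hspa5 probe set, 1447824_x_at, read 749 and 808 in Tg-18mo-ACEI, 681 and 768 in Tg-18mo and 908 and 805 in Tg-12mo. It was called in no comparison on the deposited scale (log2 difference 0.11, adjusted p = 0.41 with captopril). Dnajb9, a J protein that hands misfolded proteins to degradation and works with Hspa5, read 5111 and 5475 in Tg-18mo-ACEI, 4101 and 4376 in Tg-18mo and 6498 and 6304 in Tg-12mo. Its Tg-18mo chips were lowest and its Tg-12mo chips highest (log2 difference 0.32 ± 0.05, adjusted p = 0.0029 with captopril, and log2 difference -0.60, adjusted p = 6.9e-05 for Tg-18mo over Tg-12mo). Dnajb11, another J protein partner of Hspa5, gave 1055 and 881 in Tg-18mo-ACEI, 1027 and 1025 in Tg-18mo and 788 and 809 in Tg-12mo, with the captopril chips around those of Tg-18mo and all 4 of them above Tg-12mo (log2 difference 0.36, adjusted p = 0.01 for Tg-18mo over Tg-12mo). Dnajb12, which sits in the membrane of the endoplasmic reticulum, was called on neither of its 2 probe sets.

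Hsp90b1, the Hsp90 of the endoplasmic reticulum (Grp94), was one of several genes whose probe sets went different ways. Probe set 1438040_a_at read 2324 and 2274 in Tg-18mo-ACEI, 1355 and 1385 in Tg-18mo and 1733 and 1678 in Tg-12mo (log2 difference 0.75 ± 0.05, adjusted p = 2.9e-05 with captopril, and log2 difference -0.32, adjusted p = 0.0015 for Tg-18mo over Tg-12mo). Probe set 1415889_a_at, in contrast, had 5768 and 6005 in Tg-18mo-ACEI, 5915 and 5653 in Tg-18mo and 5143 and 4756 in Tg-12mo, with the 18 month groups overlapping and both above Tg-12mo (log2 difference 0.23, adjusted p = 0.0094 for Tg-18mo over Tg-12mo), and that call was lost with Tg-18mo replicate 1 (adjusted p = 0.065) or Tg-12mo replicate 2 (adjusted p = 0.063) left out. Dnajb14, a J protein of the same membrane, gave the widest split of all. On probe set 1430561_at the signals were 3329.6 and 3617 in Tg-18mo-ACEI, 750.2 and 722 in Tg-18mo and 2547 and 2411 in Tg-12mo, which puts Tg-18mo far below both other groups (log2 difference 2.24 ± 0.06, adjusted p = 3.6e-07 with captopril, and log2 difference -1.75 ± 0.06, adjusted p = 2.2e-06 for Tg-18mo over Tg-12mo). On probe set 1429468_at they were 1319 and 1282 in Tg-18mo-ACEI, 1382 and 1317 in Tg-18mo and 1152 and 1134 in Tg-12mo, where Tg-18mo-ACEI and Tg-18mo overlapped and Tg-12mo was lowest. The call of that probe set for Tg-18mo over Tg-12mo was lost with Tg-18mo replicate 1 (adjusted p = 0.076) left out.

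Hspa13, a microsomal Hsp70 also called Stch, had 4 probe sets. On 1453172_at the signals were 1024 and 899 in Tg-18mo-ACEI, 332 and 383 in Tg-18mo and 586 and 692 in Tg-12mo (log2 difference 1.43 ± 0.12, adjusted p = 6.4e-05 with captopril, and log2 difference -0.84, adjusted p = 0.00058 for Tg-18mo over Tg-12mo). The dim probe set 1430026_at, at 137 and 143 in Tg-18mo-ACEI, 53.6 and 52.3 in Tg-18mo and 79.8 and 75.6 in Tg-12mo, passed the signal minimum only through Tg-18mo-ACEI, so no test is given for it. The brightest, 1433772_at, read 2419.8 and 2444 in Tg-18mo-ACEI, 2176 and 1975 in Tg-18mo and 2405 and 2251 in Tg-12mo, a smaller difference with captopril of 0.23 that was lost with Tg-18mo-ACEI replicate 1 (adjusted p = 0.078), Tg-18mo-ACEI replicate 2 (adjusted p = 0.1) or Tg-18mo replicate 2 (adjusted p = 0.16) left out. On 1429502_at, the order was that of age, with 400.2 and 395 in Tg-18mo-ACEI, 378 and 348 in Tg-18mo and 279 and 228 in Tg-12mo (log2 difference 0.52, adjusted p = 0.01 for Tg-18mo over Tg-12mo), and that call was lost with Tg-18mo replicate 1 (adjusted p = 0.069) left out.

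The Hsp110 family, nucleotide exchange factors of Hsp70 that also help to dissolve aggregates, split in the same way. Hspa4l read 1189 and 1186 in Tg-18mo-ACEI, 299.6 and 292 in Tg-18mo and 507 and 558 in Tg-12mo on probe set 1458385_at. Tg-18mo was the low pair and Tg-18mo-ACEI the high pair, with no overlap (log2 difference 2.01 ± 0.08, adjusted p = 2.1e-06 with captopril, and log2 difference -0.85, adjusted p = 0.0001 for Tg-18mo over Tg-12mo). None of its other 4 probe sets was lower in Tg-18mo than in Tg-12mo past the threshold. Probe set 1449010_at gave 2366 and 2547 in Tg-18mo-ACEI, 2519 and 2684 in Tg-18mo and 1778 and 1695 in Tg-12mo, and 1418253_a_at gave 1915 and 1917 in Tg-18mo-ACEI, 1673 and 1894 in Tg-18mo and 1442 and 1292 in Tg-12mo, both higher at 18 months than at 12 months (log2 difference 0.58, adjusted p = 0.00013, and log2 difference 0.38, adjusted p = 0.004, for Tg-18mo over Tg-12mo). Probe set 1429106_at read 2023 and 2623 in Tg-18mo-ACEI, 1906 and 1445 in Tg-18mo and 1964 and 1761 in Tg-12mo, with a captopril call (adjusted p = 0.038) that was lost with Tg-18mo-ACEI replicate 2 (adjusted p = 0.24) or Tg-18mo replicate 2 (adjusted p = 0.23) left out. Probe set 1439093_at, at 1251 and 1106 in Tg-18mo-ACEI, 1234 and 1288 in Tg-18mo and 1201 and 1125 in Tg-12mo, was called in no comparison.

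Hspa4 (Apg-2) differed between its 3 probe sets in which groups stood apart. Probe set 1435194_at had 3026 and 2811 in Tg-18mo-ACEI, 1569.8 and 1503 in Tg-18mo and 1503 and 1268 in Tg-12mo, with captopril alone standing out (log2 difference 0.93 ± 0.08, adjusted p = 0.00011 over Tg-18mo). Probe set 1416147_at had 1200.4 and 1183 in Tg-18mo-ACEI, 1119 and 1119 in Tg-18mo and 536 and 549.9 in Tg-12mo, with both 18 month groups far above the 12 month chips (2.06-fold for Tg-18mo over Tg-12mo, adjusted p = 1.4e-05). On 1416146_at the signals were 1513 and 1499.8 in Tg-18mo-ACEI, 1560.3 and 1562 in Tg-18mo and 2075 and 2013 in Tg-12mo, and both 18 month groups were below Tg-12mo (log2 difference -0.39, adjusted p = 0.00046 for Tg-18mo over Tg-12mo). Hsph1 (Hsp105), the stress-inducible member with a 3-repeat heat shock element in its window, was higher at 18 months than at 12 months, with no captopril difference past the threshold. Probe set 1423566_a_at read 3981 and 3967 in Tg-18mo-ACEI, 3816 and 3939.6 in Tg-18mo and 2322 and 2126 in Tg-12mo (log2 difference 0.80 ± 0.06, adjusted p = 2.1e-05 for Tg-18mo over Tg-12mo, and log2 difference 0.04, adjusted p = 0.65 for captopril). The brighter probe set 1425993_a_at read 6930.4 and 6703 in Tg-18mo-ACEI, 6689 and 7904 in Tg-18mo and 5296 and 6208 in Tg-12mo, higher in Tg-18mo than in Tg-12mo (log2 difference 0.34, adjusted p = 0.015), a call lost with Tg-18mo replicate 2 (adjusted p = 0.1) or Tg-12mo replicate 1 (adjusted p = 0.097) left out. In the captopril comparison, the probe sets of 4 genes spanned more than 1 log2 unit. Both directions were called within 1 gene for Dnajb6 with captopril, and for 8 genes with age, namely Cct3, Dnajb14, Dnajb6, Hsp90b1, Hspa13, Hspa1b, Hspa4 and Hspa4l. Under quantile normalization the lower calls of Cct3 1448178_a_at (log2 difference -0.08, adjusted p = 0.17) and Dnajb6 1448234_at and the higher call of Dnajb14 1429468_at (0.15, adjusted p = 0.065) were lost. Between Tg-18mo-ACEI and Tg-12mo, both directions were called within Dnaja2, Hspa4 and Hspa8. Under quantile normalization neither lower call of Hspa8 was kept there (log2 difference 0.175 for 1420623_x_at and -0.02 for 1455789_x_at). The annotation used here gives each probe set a gene and not the transcript or exon it reads, so which transcript form differs cannot be told apart.

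**Figure D3:**
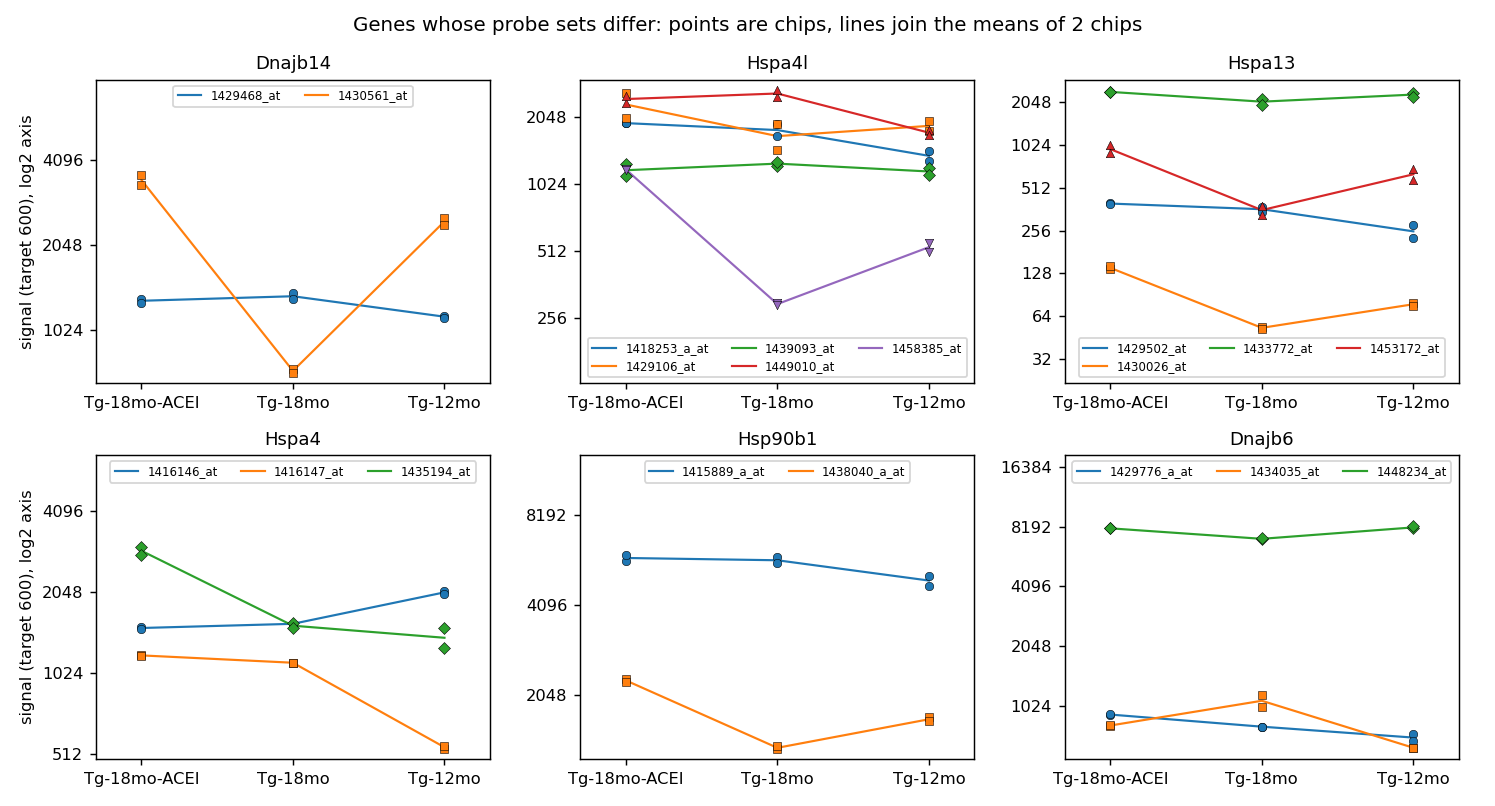
Signal of every tested probe set of Dnajb14, Hspa4l, Hspa13, Hspa4, Hsp90b1 and Dnajb6 (y axis on a log2 scale, target value 600) in Tg-18mo-ACEI, Tg-18mo and Tg-12mo. Points are chips and lines join the means of 2 chips; Dnajb14 1430561_at dips to 750.2 and 722 in Tg-18mo while 1429468_at stays between 1134 and 1382 in all 3 groups.

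Hsp90aa1, the inducible cytosolic Hsp90, was lower in Tg-18mo than in Tg-12mo on all 3 of its probe sets on the deposited scale, but under quantile normalization the sign turned on 2 of them, 1438902_a_at and 1426645_at. Its brightest, 1438902_a_at, read 13332 and 13956 in Tg-18mo-ACEI, 14281 and 14051 in Tg-18mo and 19292 and 17392 in Tg-12mo. Both 18 month groups were below Tg-12mo (log2 difference -0.37 ± 0.06, adjusted p = 0.001 for Tg-18mo), and they did not differ from each other past the threshold (adjusted p = 0.49). Probe set 1426645_at had the same shape, with 12239 and 11000.3 in Tg-18mo-ACEI, 11032 and 11479.8 in Tg-18mo and 13917 and 14022 in Tg-12mo (log2 difference -0.31, adjusted p = 0.0025 for Tg-18mo over Tg-12mo). Probe set 1437497_a_at read 12919 and 12210.3 in Tg-18mo-ACEI, 9154 and 9372 in Tg-18mo and 12522 and 13280.3 in Tg-12mo, where only Tg-18mo was low (log2 difference 0.44 ± 0.05, adjusted p = 0.0004 with captopril, and log2 difference -0.48, adjusted p = 0.00014 for Tg-18mo over Tg-12mo). The captopril call of 1437497_a_at was kept under quantile normalization, while the age difference of 1438902_a_at became 0.15.

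Among the small heat shock proteins, 4 of 9 probe sets were lower with captopril than in Tg-18mo and none was higher, and all 4 calls were kept under quantile normalization. Hspb8 (Hsp22), a partner of Bag3 in selective autophagy, read 389.9 and 396 in Tg-18mo-ACEI, 634 and 660.3 in Tg-18mo and 673 and 676 in Tg-12mo on probe set 1417013_at. Both captopril chips lay below the other 4, and the untreated groups did not differ past the threshold (log2 difference -0.72 ± 0.08, adjusted p = 0.00033 over Tg-18mo, and log2 difference -0.78, adjusted p = 0.00015 over Tg-12mo). Its probe set 1456434_x_at showed the same order with 181 and 199 in Tg-18mo-ACEI, 367 and 264 in Tg-18mo and 301 and 339 in Tg-12mo (log2 difference -0.71 ± 0.17, adjusted p = 0.014), a call lost with Tg-18mo-ACEI replicate 1 (adjusted p = 0.077), Tg-18mo-ACEI replicate 2 (adjusted p = 0.051) or Tg-18mo replicate 1 (adjusted p = 0.098) left out. The dimmest, 1417014_at, gave 157 and 156 in Tg-18mo-ACEI, 151 and 200.5 in Tg-18mo and 220.2 and 232 in Tg-12mo and was called for captopril over Tg-12mo alone (log2 difference -0.53, adjusted p = 0.044), a call lost with Tg-18mo-ACEI replicate 1 (adjusted p = 0.13), Tg-18mo-ACEI replicate 2 (adjusted p = 0.14), Tg-12mo replicate 1 (adjusted p = 0.079) or Tg-12mo replicate 2 (adjusted p = 0.12) left out. Hspb6 (Hsp20), abundant in smooth and cardiac muscle, read 271 and 252 in Tg-18mo-ACEI, 317 and 386 in Tg-18mo and 341 and 364 in Tg-12mo. The captopril chips were the low pair (log2 difference -0.42 ± 0.13, adjusted p = 0.039 over Tg-18mo), but the call was lost with Tg-18mo-ACEI replicate 1 (adjusted p = 0.087), Tg-18mo-ACEI replicate 2 (adjusted p = 0.17) or Tg-18mo replicate 2 (adjusted p = 0.25) left out.

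Hspb1 (Hsp27), which protects actin filaments and is induced in reactive astrocytes, was highest in Tg-18mo. Probe set 1422943_a_at read 745 and 798 in Tg-18mo-ACEI, 1016 and 1174 in Tg-18mo and 829.9 and 735 in Tg-12mo (log2 difference -0.50 ± 0.10, adjusted p = 0.0048 with captopril, and log2 difference 0.48 ± 0.10, adjusted p = 0.0035 for Tg-18mo over Tg-12mo). The captopril and 12 month chips overlapped. Probe set 1425964_x_at read 445 and 545 in Tg-18mo-ACEI, 574 and 588 in Tg-18mo and 361 and 377 in Tg-12mo, again highest in Tg-18mo, with log2 difference 0.65, adjusted p = 0.0017 over Tg-12mo and an adjusted p of 0.14 for captopril. Hspb3, a small heat shock protein of muscle, had 76.7 and 95.5 in Tg-18mo-ACEI, 153 and 132 in Tg-18mo and 57.5 and 86.1 in Tg-12mo, and passed the signal minimum only through Tg-18mo, so no test is given for it. Hspb11, also known as the ciliary transport protein Ift25, gave 1045 and 864 in Tg-18mo-ACEI, 888 and 853 in Tg-18mo and 1063 and 1089.9 in Tg-12mo and was lower in Tg-18mo than in Tg-12mo (log2 difference -0.31, adjusted p = 0.025), a call lost with Tg-18mo replicate 1 (adjusted p = 0.064), Tg-18mo replicate 2 (adjusted p = 0.11), Tg-12mo replicate 1 (adjusted p = 0.058) or Tg-12mo replicate 2 (adjusted p = 0.083) left out. Hspb2 likewise passed only through Tg-18mo, at a mean of 103. The summed signal of smooth muscle and pericyte markers was also highest in Tg-18mo, as was Hspb1, while Hspb6 was not (means of 351.8 in Tg-18mo and 352.8 in Tg-12mo). The summed signal of the 10 smooth muscle and pericyte markers on the array was 6827 to 6943 in Tg-18mo-ACEI, 9129.9 to 9778 in Tg-18mo and 5489 to 6161 in Tg-12mo. Of the 8 markers tested, 4 were lower with captopril and 5 were higher in Tg-18mo than in Tg-12mo. Their part in the values of these genes was not tested.

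**Figure D4:**
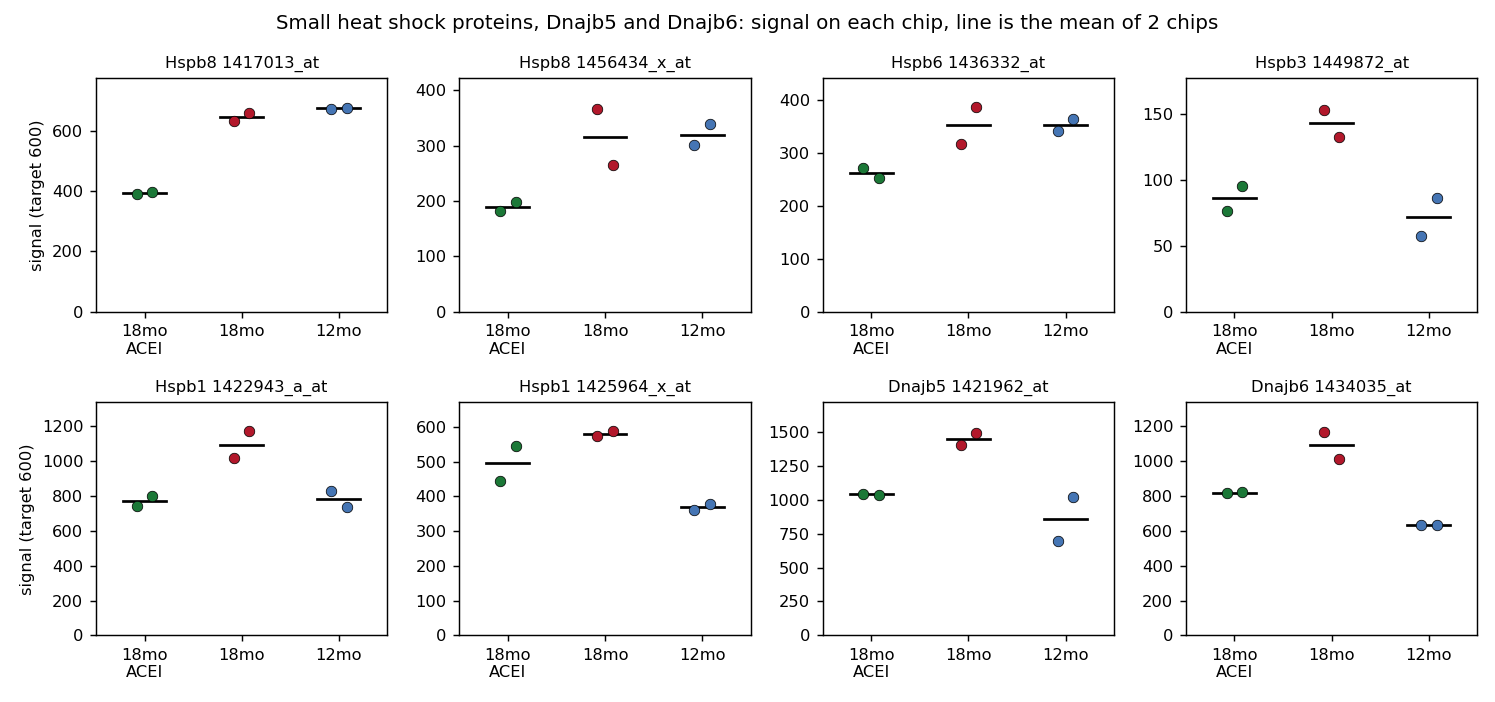
Signal on each chip (y axis, target value 600, from 0) of 6 small heat shock protein probe sets, Dnajb5 and 1 probe set of Dnajb6, with a line at the mean of 2 chips per group. Hspb8 1417013_at lies at 389.9 and 396 in Tg-18mo-ACEI, under all 4 untreated chips, while Hspb1, Dnajb5 and Dnajb6 are highest in Tg-18mo.

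The J proteins of the cytosol went both ways. Dnajb5 (Hsc40) was highest in Tg-18mo on its 3 probe sets. The brightest, 1450436_s_at, read 1809 and 1886 in Tg-18mo-ACEI, 2369 and 2163 in Tg-18mo and 1670.3 and 1593 in Tg-12mo (log2 difference -0.29 ± 0.06, adjusted p = 0.0082 with captopril, and log2 difference 0.47, adjusted p = 0.00044 for Tg-18mo over Tg-12mo). Probe set 1421962_at read 1041 and 1037 in Tg-18mo-ACEI, 1401 and 1494 in Tg-18mo and 693 and 1016 in Tg-12mo (log2 difference -0.48 ± 0.15, adjusted p = 0.038 with captopril), and 1421961_a_at read 358 and 365 in Tg-18mo-ACEI, 442 and 488 in Tg-18mo and 293 and 199 in Tg-12mo (log2 difference 0.94 ± 0.17, adjusted p = 0.0025 for Tg-18mo over Tg-12mo). The captopril call of 1450436_s_at was lost with Tg-18mo-ACEI replicate 1 (adjusted p = 0.053) or Tg-18mo replicate 1 (adjusted p = 0.062) left out, and that of 1421962_at was lost without any 1 of the 4 chips compared (adjusted p = 0.09 to 0.16). Dnajb6, which keeps polyglutamine proteins from aggregating, had the same peak on probe set 1434035_at, with 815 and 822 in Tg-18mo-ACEI, 1168 and 1012 in Tg-18mo and 633 and 632 in Tg-12mo (log2 difference -0.41 ± 0.08, adjusted p = 0.0062 with captopril, and log2 difference 0.78 ± 0.08, adjusted p = 0.00013 for Tg-18mo over Tg-12mo). Its brightest probe set, 1448234_at, had the opposite shape with 8024 and 8037 in Tg-18mo-ACEI, 7065 and 7159 in Tg-18mo and 8019 and 8216 in Tg-12mo, and differences of 0.18 with captopril and -0.19 for age, the second of which became -0.0039 under quantile normalization (adjusted p = 0.94). That captopril call was lost without any 1 of the 4 chips compared (adjusted p = 0.055 to 0.072). Probe set 1429776_a_at read 926 and 933 in Tg-18mo-ACEI, 809 and 806 in Tg-18mo and 743 and 681 in Tg-12mo, highest with captopril (log2 difference 0.39, adjusted p = 0.0034 over Tg-12mo).

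Dnaja1, a farnesylated partner of Hsc70, read 5419.7 and 6266 in Tg-18mo-ACEI, 4461 and 4179.9 in Tg-18mo and 6908 and 6245 in Tg-12mo on probe set 1459835_s_at, with Tg-18mo as the low pair (log2 difference 0.43 ± 0.08, adjusted p = 0.0039 with captopril, and log2 difference -0.61, adjusted p = 0.00039 for Tg-18mo over Tg-12mo). The other 2 probe sets of Dnaja1 were lower in Tg-18mo than in Tg-12mo as well, with log2 differences of -0.18 and -0.30, and were not called for captopril. After quantile normalization these age differences were 0.02 and -0.02 and no longer called (adjusted p = 0.79 and 0.61), and both probe sets were called higher with captopril (log2 difference 0.23 and 0.11). Dnaja2, its close relative, had 4 probe sets that differed. The brightest, 1429476_s_at, read 9404 and 9327 in Tg-18mo-ACEI, 8783 and 8882 in Tg-18mo and 11359.5 and 11430.0 in Tg-12mo and was lower in Tg-18mo-ACEI than in Tg-12mo (log2 difference -0.28, adjusted p = 0.00094), a difference that turned to 0.07 after quantile normalization. Probe set 1417183_at read 2990.0 and 3112 in Tg-18mo-ACEI, 2493 and 2421 in Tg-18mo and 2769 and 2456 in Tg-12mo and was higher with captopril (log2 difference 0.31, adjusted p = 0.0071 over Tg-18mo), and that call was lost with Tg-18mo-ACEI replicate 2 (adjusted p = 0.053) left out. Probe set 1417182_at, at 1529 and 1527 in Tg-18mo-ACEI, 1666 and 1564 in Tg-18mo and 1567 and 1678 in Tg-12mo, was called in no comparison. The dim probe set 1457233_at read 80.3 and 122 in Tg-18mo-ACEI, 121 and 124 in Tg-18mo and 157 and 179.7 in Tg-12mo, and its call against Tg-12mo (adjusted p = 0.037) was lost without 5 of the 6 chips, Tg-18mo-ACEI replicate 2 being the exception (adjusted p up to 0.21).

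Dnaja4, a cytosolic J protein, and Dnajb2, one enriched in neurons that feeds ubiquitinated proteins to the proteasome, had probe sets that were higher at 18 months than at 12 months. Dnaja4 probe set 1434196_at read 2070.4 and 1919 in Tg-18mo-ACEI, 1797 and 1788 in Tg-18mo and 1349 and 1437 in Tg-12mo (log2 difference 0.36, adjusted p = 0.0016 for Tg-18mo over Tg-12mo). Dnajb2 read 2371 and 2348 in Tg-18mo-ACEI, 2533 and 2437 in Tg-18mo and 1874 and 1901 in Tg-12mo (log2 difference 0.40, adjusted p = 0.00033). On both of these probe sets all 18 month chips lay above both 12 month chips, and captopril made no difference past the threshold. The dimmer Dnaja4 probe set 1418592_at, with 469 and 449 in Tg-18mo-ACEI, 390.0 and 443 in Tg-18mo and 344 and 467 in Tg-12mo, was called in no comparison. Dnajb1 (Hsp40), the stress-inducible partner of Hspa1a and Hspa1b, gave 4596 and 3818 in Tg-18mo-ACEI, 3048 and 3732 in Tg-18mo and 3927 and 4146 in Tg-12mo on probe set 1416755_at (log2 difference 0.31 ± 0.11, adjusted p = 0.054). That probe set was called in no comparison, while the dimmer 1416756_at was higher in Tg-18mo than in Tg-12mo (log2 difference 0.26, adjusted p = 0.016). Dnajb4, a related J protein, read 3204 and 3068 in Tg-18mo-ACEI, 2579 and 2641 in Tg-18mo and 2797 and 3269 in Tg-12mo on probe set 1451177_at, with Tg-18mo lowest (log2 difference 0.26, adjusted p = 0.024 with captopril). Dnajb13, which belongs to the radial spokes of motile cilia, read 72 and 62.6 in Tg-18mo-ACEI, 121 and 116 in Tg-18mo and 131 and 97.9 in Tg-12mo, near the signal minimum (log2 difference -0.82 ± 0.25, adjusted p = 0.037 with captopril, lost without any 1 of the 4 chips compared, adjusted p = 0.08 to 0.16). Beside it, 8 of 8 ependymal markers tested were lower with captopril. The summed signal of the 10 ependymal markers on the array was 1882 to 2056 in Tg-18mo-ACEI, 3418 to 3584 in Tg-18mo and 3143 to 3214 in Tg-12mo. Their part in the value of Dnajb13 was not tested.

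Of the mitochondrial chaperones, 1 of 9 probe sets was called with captopril. Hspd1 (Hsp60), the ring of the mitochondrial chaperonin, read 5299 and 5533 in Tg-18mo-ACEI, 5457 and 5692 in Tg-18mo and 4384 and 4327 in Tg-12mo. All 18 month chips were above both 12 month chips (log2 difference 0.36 ± 0.05, adjusted p = 0.00045 for Tg-18mo), and captopril made no difference past the threshold (log2 difference -0.04, adjusted p = 0.53). Hspe1 (Hsp10), the lid of that ring, read 4702 and 4877 in Tg-18mo-ACEI, 5633 and 5486 in Tg-18mo and 5282 and 5892 in Tg-12mo on probe set 1450668_s_at. It was lower with captopril (log2 difference -0.22 ± 0.06, adjusted p = 0.024), a call lost without any 1 of the 4 chips compared (adjusted p = 0.064 to 0.11), and its difference between Tg-18mo and Tg-12mo did not pass the threshold (log2 -0.01, adjusted p = 0.95). The 2 genes share their start region, as shown above. Hspa9 (mortalin), the mitochondrial Hsp70, was called on none of its 4 probe sets in any comparison. Its brightest read 3156 and 3318 in Tg-18mo-ACEI, 3023 and 3025 in Tg-18mo and 3166 and 3012 in Tg-12mo. Dnaja3, the J protein partner of Hspa9, read 513 and 477 in Tg-18mo-ACEI, 389.5 and 394 in Tg-18mo and 356 and 293 in Tg-12mo on probe set 1420629_a_at and was higher with captopril than in Tg-12mo (log2 difference 0.61, adjusted p = 0.0039). Its brighter probe set 1449935_a_at, at 2182.2 and 2174 in Tg-18mo-ACEI, 2249 and 2151 in Tg-18mo and 2219.9 and 2384 in Tg-12mo, was called in no comparison.

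Of the 20 probe sets of 7 TRiC subunits, 8 were lower and 2 higher in Tg-18mo than in Tg-12mo on the deposited scale, with a median log2 difference of -0.08 that became 0.04 under quantile normalization. Cct6a, with the brightest TRiC probe set, read 9601 and 9480.0 in Tg-18mo-ACEI, 7876 and 8853 in Tg-18mo and 12241 and 11795 in Tg-12mo (log2 difference -0.53 ± 0.06, adjusted p = 0.0002 for Tg-18mo over Tg-12mo). Cct2 had 9060.1 and 8361 in Tg-18mo-ACEI, 8523 and 7955 in Tg-18mo and 10684 and 11083 in Tg-12mo on its brightest probe set (log2 difference -0.40 ± 0.06, adjusted p = 0.00062). Cct4 read 6402 and 7111 in Tg-18mo-ACEI, 6000.3 and 5746 in Tg-18mo and 8475 and 8139.5 in Tg-12mo (log2 difference -0.50 ± 0.06, adjusted p = 0.00024). On these 3 probe sets both 12 month chips stood above the other 4, which was not so on every probe set of the same subunits. Cct6a 1423517_at read 7575 and 7403 in Tg-18mo-ACEI, 6168 and 6551 in Tg-18mo and 6853 and 6896 in Tg-12mo, highest with captopril (log2 difference 0.24 ± 0.05, adjusted p = 0.006 over Tg-18mo), and Cct4 1415867_at, at 5509.7 and 5389 in Tg-18mo-ACEI, 5742 and 5714 in Tg-18mo and 5691 and 5807 in Tg-12mo, was called in no comparison. Cct3, at 7859 and 8171 in Tg-18mo-ACEI, 7324 and 7506 in Tg-18mo and 9213 and 8961 in Tg-12mo, and Cct5, at 7201 and 7138 in Tg-18mo-ACEI, 6946 and 7339 in Tg-18mo and 8472 and 8817 in Tg-12mo, were lower in Tg-18mo than in Tg-12mo by smaller steps (log2 difference -0.29, adjusted p = 0.00098, and log2 difference -0.28, adjusted p = 0.0018). Cct7, at 6112 and 5955 in Tg-18mo-ACEI, 6632 and 6886 in Tg-18mo and 6996 and 7023 in Tg-12mo, was lowest with captopril (log2 difference -0.16, adjusted p = 0.023 over Tg-18mo), and that call was lost with Tg-18mo-ACEI replicate 1 (adjusted p = 0.054), Tg-18mo-ACEI replicate 2 (adjusted p = 0.11) or Tg-18mo replicate 2 (adjusted p = 0.14) left out. Cct8, at 3168 and 3146 in Tg-18mo-ACEI, 3345 and 3178 in Tg-18mo and 3027 and 2652 in Tg-12mo, was higher in Tg-18mo than in Tg-12mo (log2 difference 0.20, adjusted p = 0.036), a call lost without 5 of the 6 chips, Tg-12mo replicate 1 being the exception (adjusted p = 0.055 to 0.19). Tcp1, the remaining subunit listed with the other chaperone genes, read 7069 and 6607 in Tg-18mo-ACEI, 6677 and 7420.2 in Tg-18mo and 7523 and 7775 in Tg-12mo.

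With captopril, 5 of the 20 TRiC probe sets were higher and 2 lower than in Tg-18mo. Cct2 1433534_a_at read 3867 and 4780.3 in Tg-18mo-ACEI, 3529.8 and 3164 in Tg-18mo and 5561 and 4569 in Tg-12mo (log2 difference -0.59, adjusted p = 0.0035 for Tg-18mo over Tg-12mo, and log2 difference 0.36, adjusted p = 0.043 with captopril). Its captopril call was lost with Tg-18mo-ACEI replicate 2 (adjusted p = 0.26), Tg-18mo replicate 1 (adjusted p = 0.063) or Tg-18mo replicate 2 (adjusted p = 0.21) left out. Cct4 1456082_x_at read 1253 and 955 in Tg-18mo-ACEI, 725 and 635 in Tg-18mo and 972 and 782 in Tg-12mo, the highest rise of the complex with captopril (log2 difference 0.69 ± 0.15, adjusted p = 0.0078), and that call was lost with Tg-18mo-ACEI replicate 1 (adjusted p = 0.051) or Tg-18mo replicate 2 (adjusted p = 0.056) left out. A dimmer probe set of Cct4, 1456572_x_at, went the other way, with 58.2 and 238 in Tg-18mo-ACEI, 264 and 391 in Tg-18mo and 180 and 229 in Tg-12mo. That fall was large but uneven and was not called (log2 difference -1.45 ± 0.54, adjusted p = 0.071 in limma). Cct3 had 5 probe sets of which 1448178_a_at was lower and 1449645_s_at, at 1383 and 1321 in Tg-18mo-ACEI, 1550.2 and 1530.3 in Tg-18mo and 1180.4 and 1281 in Tg-12mo, was higher in Tg-18mo than in Tg-12mo (log2 difference 0.33, adjusted p = 0.0033). The captopril call of 1449645_s_at (log2 difference -0.19, adjusted p just under the threshold) was lost without any 1 of the 4 chips compared (adjusted p = 0.089 to 0.22). The other 3 of Cct3 were called in no comparison, at 7576 and 7449 in Tg-18mo-ACEI, 6655 and 7085 in Tg-18mo and 7006 and 7159 in Tg-12mo for 1416024_x_at, 5221 and 4926 in Tg-18mo-ACEI, 5485 and 5611 in Tg-18mo and 5290.5 and 4894 in Tg-12mo for 1459987_s_at and 234 and 296 in Tg-18mo-ACEI, 236 and 196 in Tg-18mo and 209.5 and 188 in Tg-12mo for 1426067_x_at. For captopril against Tg-18mo, the calls of Cct6a 1455988_a_at and Cct4 1433447_x_at were small (0.19 and 0.20), the first lost with Tg-18mo-ACEI replicate 1 (adjusted p = 0.13), Tg-18mo-ACEI replicate 2 (adjusted p = 0.12), Tg-18mo replicate 1 (adjusted p = 0.22), Tg-12mo replicate 1 (adjusted p = 0.052) or Tg-12mo replicate 2 (adjusted p = 0.052) left out, and the second lost with Tg-18mo-ACEI replicate 2 (adjusted p = 0.19), Tg-18mo replicate 1 (adjusted p = 0.064) or Tg-18mo replicate 2 (adjusted p = 0.16) left out.

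Bright probe sets in general were lower at 18 months. Among all probe sets with a mean signal of 5000 or more, 68.3% were lower and 9.01% higher in Tg-18mo than in Tg-12mo, and of the 28 heat shock protein and chaperonin probe sets that bright, 18 were lower and 3 higher. The same signal class had 70.7% lower and 5.27% higher in Tg-18mo-ACEI than in Tg-12mo, against 15 lower and 3 higher of the 28. The falls of Hspa8, Hsp90aa1 and TRiC against Tg-12mo therefore stand beside a like shift of other bright probe sets. Quantile normalization, which forces the same distribution of signals on each chip, kept 16 of 28 lower calls for Tg-18mo against Tg-12mo and turned the sign of 4. For Tg-18mo-ACEI against Tg-12mo it kept 7 of 23 and turned the sign of 8, and the split there was 37 higher and 8 lower, in place of 33 and 23. Calls that stayed lower in Tg-18mo than in Tg-12mo under both scalings included Cct4 1433447_x_at (log2 difference -0.32 after quantile normalization) and Cct6a 1455988_a_at (-0.25).

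**Figure D5:**
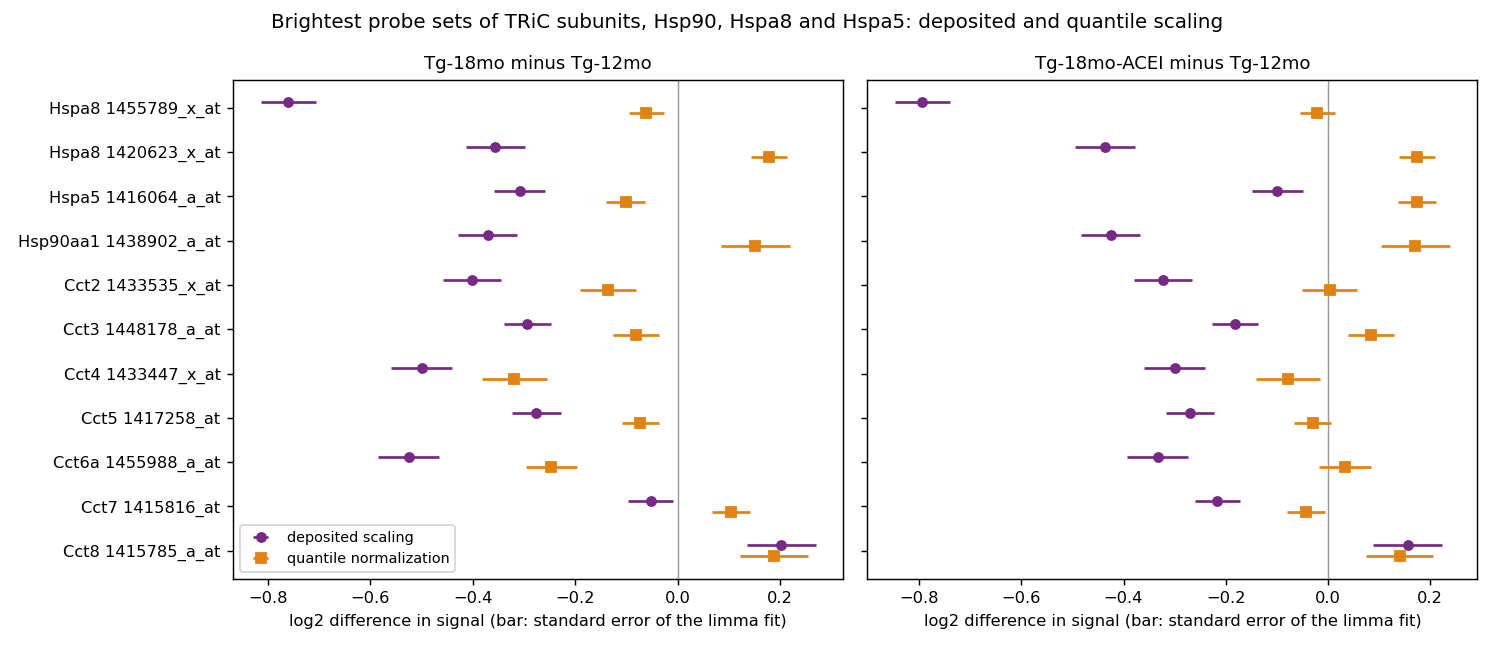
Log2 difference in signal (x axis, bar is the standard error of the limma fit) of 11 bright probe sets between Tg-18mo and Tg-12mo (left) and between Tg-18mo-ACEI and Tg-12mo (right), on the deposited scale and after quantile normalization. Hspa8 1455789_x_at has -0.76 on the deposited scale and -0.06 after quantile normalization in the left panel, and Cct8 has 0.20 and 0.19.

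The partners of these chaperones were listed separately. Of 90 other chaperone genes listed (prefoldin, co-chaperones, J proteins of the C class, and factors of the endoplasmic reticulum and mitochondria), 83 were tested on their brightest probe set. With captopril 11 were higher and 20 lower than in Tg-18mo, against 15.9% and 17.7% of all probe sets, and their median log2 difference of -0.04 equals that of all probe sets. Fkbp5, a co-chaperone of Hsp90 at the glucocorticoid receptor, read 1165 and 1132 in Tg-18mo-ACEI, 1955 and 1901 in Tg-18mo and 1137 and 1101 in Tg-12mo. Its Tg-18mo chips were the high pair (log2 difference -0.75 with captopril, adjusted p = 4.5e-05, and 0.78 for Tg-18mo over Tg-12mo). Clpx, the unfoldase of a mitochondrial protease, read 1189.6 and 1146 in Tg-18mo-ACEI, 695 and 493 in Tg-18mo and 1107 and 1070.3 in Tg-12mo, low in Tg-18mo (log2 difference 0.996 with captopril, adjusted p = 0.001). Xbp1, a transcription factor of the unfolded protein response, read 7593 and 7625 in Tg-18mo-ACEI, 5459 and 5457 in Tg-18mo and 7374 and 7531 in Tg-12mo (0.48 with captopril, adjusted p = 9.5e-05). Its Tg-18mo chips were the low pair, as in Hspa5 1416064_a_at and Dnajb9. Of the 21 listed factors of the endoplasmic reticulum and mitochondria, 2 (Clpx and Xbp1) were higher and 3 lower with captopril than in Tg-18mo. Their median log2 difference was -0.04. Chordc1, a co-chaperone of Hsp90, read 2389.9 and 2450.4 in Tg-18mo-ACEI, 1788 and 1682 in Tg-18mo and 1327 and 1353 in Tg-12mo (0.48, adjusted p = 0.00041). Pdcl, a phosducin-like protein that works with TRiC, had a log2 difference of 0.73 with captopril, and Dnajc11 of mitochondria had -0.44.

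With age, 26 of the 83 were higher and 19 lower in Tg-18mo than in Tg-12mo, against 25.9% and 21.5% of all probe sets. Stip1 (Hop), which joins Hsp70 and Hsp90, read 2628 and 2385 in Tg-18mo-ACEI, 2962 and 2939 in Tg-18mo and 1793 and 1864 in Tg-12mo (log2 difference 0.69 for Tg-18mo over Tg-12mo, adjusted p = 5.3e-05). Dnajc7, another protein that binds both, read 3140.5 and 3068 in Tg-18mo-ACEI, 3997 and 4248 in Tg-18mo and 2303 and 2234 in Tg-12mo (0.86). In both the 12 month chips were lowest and the Tg-18mo chips highest. Fkbp8, a membrane-bound relative of Fkbp5, and Atf6, a sensor of the unfolded protein response, were higher too, with log2 differences of 0.70 and 0.68. Between Tg-18mo-ACEI and Tg-12mo, 20 were higher and 19 lower, against 22.3% and 17.7% of all. The 6 largest log2 differences were those of Chordc1 (0.85), Clpp, the protease that works with Clpx (-0.70), Sdf2l1 and Sil1, partners of Hspa5 (0.69 and -0.59), Pdcl (0.58) and the prefoldin subunit Pfdn6 (0.58). Of 5 genes in the list of heat shock transcription factors and their regulators, Hsf4 and the inhibitor Hsbp1 were tested. Neither was called for captopril, and Hsbp1 was lower in Tg-18mo than in Tg-12mo (log2 difference -0.15, adjusted p = 0.024).

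The 26 probe sets below the signal minimum belong to 21 genes, of which 9 had no other probe set: Cct6b, Cct8l1, Dnajb3, Dnajb7, Dnajb8, Hspa12b, Hspa1l, Hspb7 and Hspb9. The testis forms Cct6b, Dnajb3, Dnajb8 and Hspa1l are among them. The highest of the 26 was Hspa12b, an endothelial relative of Hspa12a, with 53.2 and 58.3 in Tg-18mo-ACEI, 94.1 and 96.8 in Tg-18mo, and 9.45 and 45.2 in Tg-12mo, and the lowest values kept were those of Hspb2 and Dnajb13, with highest group means of 103 and 118.6. Signals this low do not fix the size of a log2 difference, and no test was made below the minimum. Of the 101 kept, 3 reached the minimum in 1 group only (Hspa13 1430026_at, Hspb2 and Hspb3). They are part of the counts and medians by family.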

How the data were processed

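Hippocampal RNA of 4 male Tg2576 mice was pooled per chip and hybridised to Affymetrix Mouse Genome 430 2.0 chips, 2 per group in 3 groups. The series describes the 2 chips of a group as biological replicates, and whether they carry different mice is not given in the sources used here. The deposited values are linear signal intensities that the authors computed with the Affymetrix GCOS software and scaled on each chip to a target value of 600. They are intensities summarized over the probes of a probe set and not counts, so read depth does not apply, and the number of chips limits the precision. Gene names came from the platform annotation, and a probe set with several symbols named no gene. Control probe sets were left out, and 23262 of 45101 probe sets with a group mean of 100 or more were tested. Log2 signals of all 6 chips were fitted with limma 3.58.1 in R 4.3.3 (lmFit, eBayes with trend, 3 residual and 5.37 prior degrees of freedom), and p-values were adjusted with the Benjamini-Hochberg method over all probe sets tested. A call is an adjusted p under 0.05. Tables and figures were made with Python 3.11.15, pandas 2.3.3 and matplotlib 3.10.9. The fit was tested on simulated data. The probe sets described are the brightest of each family and of each TRiC subunit, the 8 largest called rises and falls without overlap in each comparison, all probe sets of genes called in both directions, and for other chaperone genes the 6 largest calls. The members of other families described beside them, such as Hspb2, Hspb11, Hspa2, Hspa14, Dnajb1, Dnajb2, Dnajb4 and Dnaja4, were taken up after their values were seen where they fall outside that rule. Genes and lists were chosen with earlier results of these data known. Alternatives were quantile normalization, scaling by the chip median, an added 32, other signal minimums, limma without trend, a replicate block, the methods' t-test with its thresholds of p and fold, and leaving out each chip.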

Additional observations from a re-analysis of the deposited data

How the results depend on the processing

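Of 112 calls on the 62 probe sets described in full, 56 held in every alternative but the methods' t-test, and 56 were lost in at least 1. Adding 32 to each signal kept all 112, and quantile normalization kept 87, lost 17 and turned the direction of 8. Those that turned were bright probe sets against Tg-12mo: after quantile normalization the log2 difference of Tg-18mo over Tg-12mo was 0.18 for Hspa8 1420623_x_at and 0.15 for Hsp90aa1 1438902_a_at, and that of Tg-18mo-ACEI over Tg-12mo was 0.17 for Hsp90aa1 1438902_a_at, 0.175 for Hspa8 1420623_x_at, 0.067 for Dnaja2 1429476_s_at, 0.0041 for Cct2 1433535_x_at, 0.0846 for Cct3 1448178_a_at and 0.0338 for Cct6a 1455988_a_at. The count lower in Tg-18mo-ACEI than in Tg-12mo was 8 under quantile normalization, in place of 23. For captopril against Tg-18mo, limma without the intensity trend called 17 higher and 6 lower, in place of 27 and 11, and without a filter on low signals 7 were lower. The methods' t-test on log2 signals with Benjamini-Hochberg adjustment called 1 higher and 0 lower with captopril against Tg-18mo (21 and 11 at an unadjusted p under 0.05), 1 and 2 for Tg-18mo against Tg-12mo (13 and 25), and 0 and 0 for Tg-18mo-ACEI against Tg-12mo (24 and 17). At p of 0.01 or less and 2-fold, limma called 4 higher and 0 lower, 2 and 1, and 3 and 0 in the same order of comparisons, and the methods' t-test on linear signals 3 and 0, 1 and 1, and 2 and 0. Leaving out 1 chip at a time gave 19 to 30 higher and 3 to 13 lower for captopril against Tg-18mo, 18 to 26 and 26 to 28 for Tg-18mo against Tg-12mo, and 27 to 33 and 17 to 22 for Tg-18mo-ACEI against Tg-12mo. The lone chip left in a group was then assumed to vary like the others. The cause of these differences was not tested.

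Chips with the same replicate number did not deviate together (correlations of -0.03, -0.05 and 0.03 between groups across probe sets), so the numbers do not pair the chips. With the replicate number as a block, 25 were higher and 10 lower for captopril against Tg-18mo, 25 and 29 for Tg-18mo against Tg-12mo, and 34 and 23 for Tg-18mo-ACEI against Tg-12mo. With 2 pools per group, the spread between mice was not measured.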
